A study of Arabidopsis thaliana with 12 samples.

Results

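CHLM (AT4G25080) and the geranylgeranyl reductase gene AT1G74470 were followed in Arabidopsis thaliana of the prors2 line and of the wild type (WT). They were chosen as the features whose probe is tied by the platform's gene table to exactly 1 gene, that gene being one of these loci. Each locus had 1 such probe, so the pair makes up 2 of the 3439 features on the array and 2 of the 692 single-gene features. The prors2 line is labelled as a mutant lacking prolyl-tRNA synthetase, the enzyme that attaches proline to its transfer RNA. Both lines are in the Columbia 0 ecotype. Total RNA of 6 prors2 and 6 WT samples was hybridized, with 1 array per sample. The sources used here do not give the allele, tissue, age or growth conditions, nor any pooling of plants. They also do not say that each sample is a plant or culture of its own, so p-values below cover the spread among the 6 samples of a group, and that spread may be technical.

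Chlorophyll is built from a ring and a tail that are made by separate routes in the plastid. In the ring branch, magnesium is inserted into protoporphyrin IX and CHLM, the magnesium-protoporphyrin IX methyltransferase, then adds a methyl group to the product. In the tail branch, geranylgeranyl reductase converts the geranylgeranyl chain of the isoprenoid pathway into the phytyl chain, which is joined to the ring and is also used for tocopherols. Both enzymes are encoded in the nucleus and work in the chloroplast.

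Facts of the arrays set the scale for what follows. The median feature had a deposited relative intensity between 0.279 and 0.305 on prors2 arrays and between 0.135 and 0.169 on WT arrays. Features at 0 numbered 262 to 316 on prors2 arrays and 368 to 396 on WT arrays. The median log2 difference of the 3024 tested features was therefore 0.76 on the deposited values (prors2 minus WT), whereas it was 0.07 after quantile normalization between arrays. Differences are given on the quantile-normalized log2 scale unless another is named. No probe for a prolyl-tRNA synthetase gene was used here, so the genotypes rest on the labels.

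The tail branch gene was lower in prors2 under each of 5 scalings, while the ring branch gene was lower relative to the other features but not on the deposited values. The deposited relative intensity of AT1G74470 had a lowest value of 2.08, a median of 2.35 and a highest of 2.57 in prors2, against 4.34, 4.54 and 4.87 in WT. The groups did not overlap, and every prors2 sample lay well below every WT sample, as in 7.16% of the 2654 features with a value above 0 in all 12 samples. The deposited relative intensity of CHLM had a lowest value of 0.399, a median of 0.441 and a highest of 0.520 in prors2, against 0.360, 0.417 and 0.505 in WT. For CHLM the groups overlapped over most of their range. In bulk RNA, fewer cells of a type and less RNA per cell cannot be told apart.

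**Figure D1:**
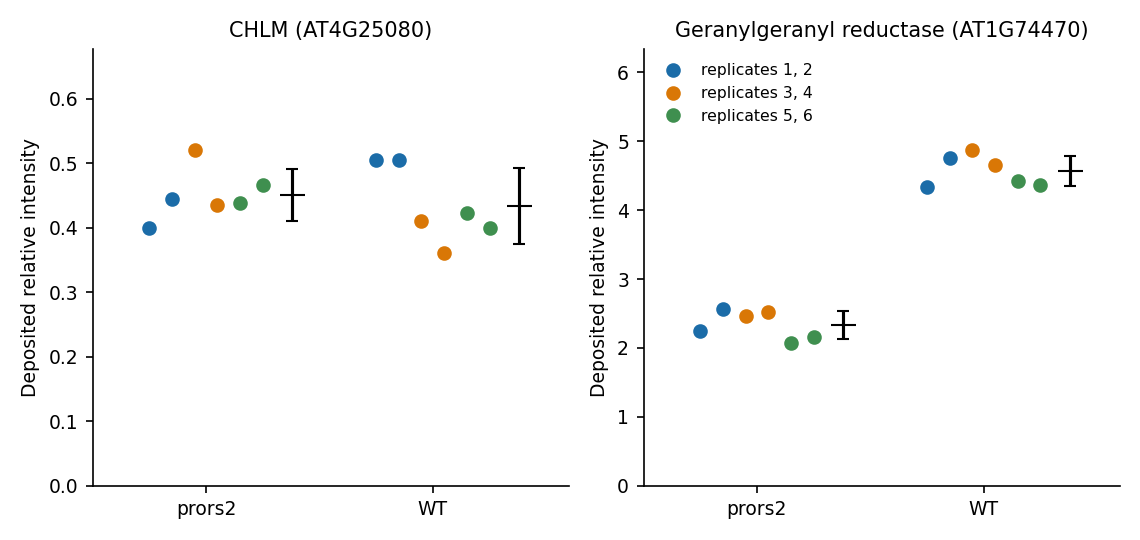
Deposited relative intensity (linear scale from 0) of CHLM and AT1G74470 in each of 6 prors2 and 6 WT samples, coloured by neighbouring replicate numbers, with the mean and SD beside each group. For AT1G74470 the prors2 samples lie between 2.08 and 2.57 and the WT samples between 4.34 and 4.87, whereas the CHLM groups overlap and WT replicates 1 and 2 are the highest WT samples.

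AT1G74470 fell 1.86-fold in prors2. Its quantile-normalized log2 level averaged 1.22 ± 0.096 in prors2 and 2.12 ± 0.057 in WT (SD, n = 6 each), a log2 difference of -0.90 (SE 0.080, 95% interval -1.07 to -0.72, limma adjusted p = 2.90e-06). CHLM fell 1.46-fold, with a log2 level of -1.50 ± 0.14 in prors2 and -0.95 ± 0.22 in WT (SD, n = 6 each), a difference of -0.55 (SE 0.12, 95% interval -0.81 to -0.29, limma adjusted p = 0.00247). Both genes were thus called lower, a call that 22.4% of all tested features received. In the fit with the replicate number as a block both were called lower too, as were 25.1% of tested features. For AT1G74470 the groups did not overlap on this scale, which was so in the lower direction for 16.2% of the complete features. For CHLM they overlapped, since the lowest WT log2 level (-1.29) was just under the highest prors2 level (-1.28).

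Among the 3024 tested features, 12.8% had a more negative difference than AT1G74470 and 22.9% a more negative one than CHLM. Of the 606 tested features with 1 gene, 77 lay below AT1G74470 and 137 below CHLM. The spread within groups was small for AT1G74470, at an SD of 0.079 on the log2 scale. Only 0.397% of tested features had a smaller spread than that. The AT1G74470 probe was also among the brightest, at rank 123 by mean signal, and its spread was not compared with that of equally bright features. CHLM had an SD of 0.19, and 14.8% of tested features were tighter.

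**Figure D2:**
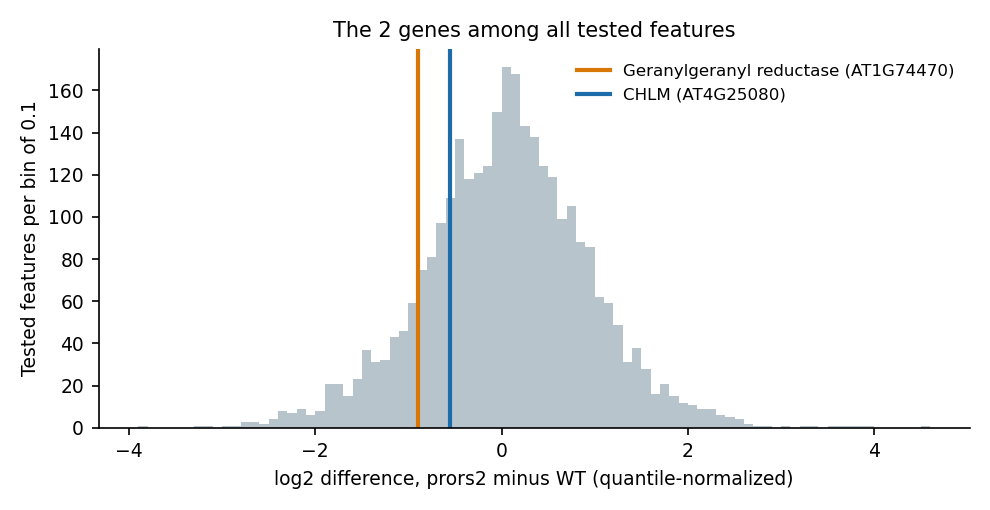
Number of tested features per bin of 0.1 along the log2 difference (prors2 minus WT, quantile-normalized values, n = 6 samples per group), with vertical lines at the 2 genes. AT1G74470 at -0.90 and CHLM at -0.55 both lie on the lower side of a broad distribution whose median is 0.07.

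The choice of scaling decided the CHLM call and not that of AT1G74470. Without scaling, the log2 difference of AT1G74470 was -0.97 (SE 0.088, limma adjusted p = 1.93e-06), while 8.9% of tested features were called lower there. With arrays brought to equal sums it was -1.04, after median centring -1.80 and after cyclic loess -0.94, and each was called, against 9.85%, 29.1% and 23.9% of tested features called lower. CHLM differed by 0.06 on the deposited values (SE 0.11, 95% interval -0.18 to 0.30, limma adjusted p = 0.641) and by -0.01 at equal sums (95% interval -0.27 to 0.24, limma adjusted p = 0.931), neither of which passed. After median centring CHLM differed by -0.76 (limma adjusted p = 2.19e-04) and after cyclic loess by -0.55 (limma adjusted p = 0.00278).

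Read against the median of all tested features, the scalings lay closer for CHLM. Minus that median, the CHLM difference was -0.62 after quantile normalization, -0.57 after cyclic loess and -0.70 on the deposited values, and the AT1G74470 difference was -0.97, -0.96 and -1.73. The rank of each probe's signal among the features of its own array also fell in prors2. The CHLM probe was at a percentile of 65.8 ± 2.7 in prors2 and 76.5 ± 3.8 in WT (SD, n = 6 each), and the AT1G74470 probe at 94.6 ± 0.38 in prors2 and 97.3 ± 0.096 in WT. For both genes the percentiles of the groups did not overlap, as in 17.9% of features with complete values. A percentile describes a probe's signal and not the abundance of its transcript.

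**Figure D3:**
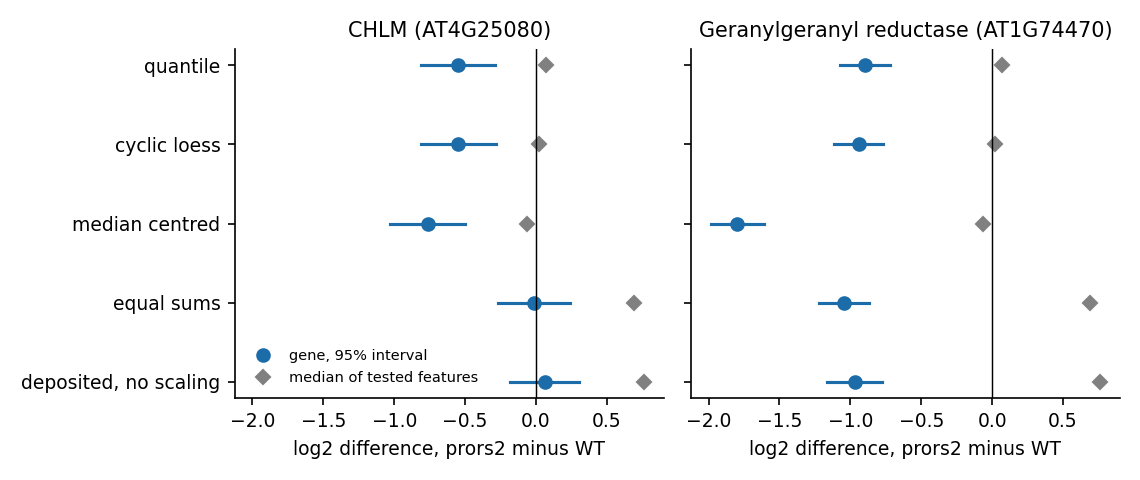
Log2 difference (prors2 minus WT) of CHLM and AT1G74470 under 5 scalings, as circles with the 95% interval from limma, and the median difference of the 3024 tested features as grey diamonds. AT1G74470 is below 0 under each scaling, from -0.90 to -1.80, while CHLM is at 0.06 on the deposited values and at -0.01 at equal sums, where the median feature is at 0.76 and 0.69.

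Samples of the same replicate number deviated together, so the differences were also taken within each number. For AT1G74470 the log2 differences of replicates 1 to 6 were -0.91, -0.83, -0.83, -0.78, -1.05 and -0.96. They spread little, and all 6 were below 0. For CHLM the log2 differences of replicates 1 to 6 were -0.94, -0.76, -0.18, -0.34, -0.63 and -0.45. All 6 were again below 0, but replicates 1 and 2 had differences far larger than replicates 3 and 4.

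The deposited CHLM values split by number. Replicates 1 and 2 were lower in prors2, at -0.34 and -0.19, and replicates 3 to 6 were higher, at 0.34, 0.27, 0.05 and 0.22 on the log2 scale. The SD of the deposited CHLM intensity was 0.041 in prors2 and 0.059 in WT. WT replicates 1 and 2 had a deposited CHLM intensity of 0.505 each, and the other WT samples had 0.410, 0.360, 0.423 and 0.399. In prors2 the same replicates 1 and 2 had 0.399 and 0.444, among 0.520, 0.435, 0.438 and 0.467 in the others. AT1G74470 kept to deposited differences between -0.89 and -1.09 in all 6 numbers. Over all complete features, samples of opposite genotype deviated together also where their numbers were neighbours (1 with 2, 3 with 4, 5 with 6), at a mean r of 0.12, against -0.10 for other numbers. After quantile normalization CHLM averaged -0.85 in the first such set, -0.26 in the second and -0.54 in the third. AT1G74470 averaged -0.87, -0.81 and -1.01 in the same sets. The labels do not say whether a set marks a batch, and its part in the CHLM values was not tested.

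The tail branch gene and the ring branch gene were then set against each other within each sample, as log2 of AT1G74470 minus log2 of CHLM. These single genes do not stand for their whole branches. Probes differ in how brightly they respond, so only the change of this gap between the groups is read. A factor that scales a whole array drops out of it, so the change of the gap is the same for deposited, equal-sum and median-centred values. A shift that differs between bright and dim features does not drop out. At equal sums the median tested feature was still 0.69 higher in prors2 on the log2 scale. By mean quantile-normalized signal the AT1G74470 probe ranked 123 and the CHLM probe 921 from the brightest. The part of brightness in the gap was not tested, and gaps of other feature pairs of like brightness were not computed. On the deposited values the gap was 2.49, 2.53, 2.24, 2.53, 2.24 and 2.21 in prors2 replicates 1 to 6, against 3.10, 3.23, 3.57, 3.69, 3.39 and 3.45 in WT replicates 1 to 6. The groups did not overlap, and the gap was smaller in prors2 in 6 of 6 numbers. The gap averaged 2.38 ± 0.16 in prors2 and 3.41 ± 0.22 in WT (SD, n = 6 each). Its change was -1.03 (SE 0.11, 95% interval -1.27 to -0.79), with a two-sided exact permutation p of 0.00216, the smallest that 6 against 6 samples can give. Benjamini-Hochberg adjustment over the 13 gaps computed gave an exact permutation p of 0.00352. Most of these gaps are to photosystem genes whose directions were known beforehand. Their small p-values make the adjustment lenient, here and for the gaps below. Sign flips within the replicate numbers gave an exact p of 0.0312, the smallest that 6 pairs allow. On these per-array scalings the tail branch gene was thus lower in prors2 relative to the ring branch gene.

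Quantile normalization, which gives all arrays the same distribution and so does not cancel in the gap, made this contrast smaller. The gap averaged 2.72 ± 0.14 in prors2 and 3.06 ± 0.23 in WT (SD, n = 6 each), a change of -0.35 (95% interval -0.59 to -0.10, exact permutation p = 0.0152, adjusted exact p = 0.0179 over the 13 gaps). The groups overlapped, and the gap was smaller in prors2 in 5 of 6 numbers. With the pairing by replicate number kept, it did not pass (sign-flip exact p = 0.0625). Replicates 1 and 2 changed by 0.02 and -0.07, and replicates 3 to 6 by -0.65, -0.44, -0.42 and -0.51. Sets of neighbouring numbers were left out only after the data were seen. Without replicates 1 and 2 of both groups, which changed least, the change had to be larger, at -0.51. Its exact permutation p of 0.0286, the smallest that 4 against 4 allow, gives no further support. The change was -0.24 without replicates 3 and 4 (exact permutation p = 0.0857) and -0.30 without replicates 5 and 6 (exact permutation p = 0.2). Neither passed. After cyclic loess the change was -0.39 (exact permutation p = 0.00649), with 6 of 6 numbers lower.

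**Figure D4:**
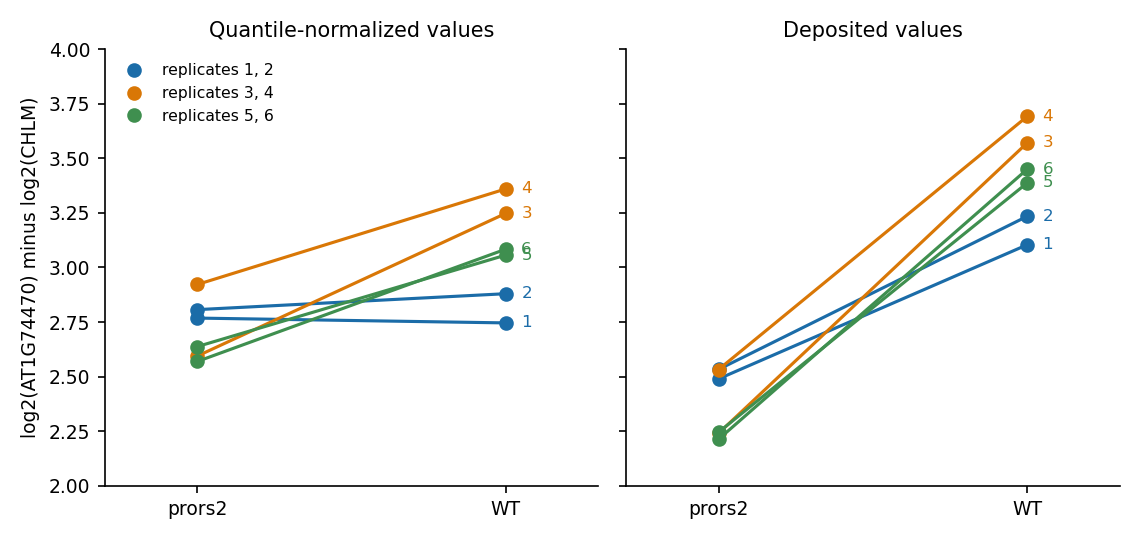
Gap between log2 AT1G74470 and log2 CHLM in each sample (vertical axis, log2 units), with lines joining prors2 and WT samples of the same replicate number, 1 to 6. On the deposited values all 6 prors2 samples (2.21 to 2.53) lie below all 6 WT samples (3.10 to 3.69), and after quantile normalization replicates 1 and 2 are nearly level while the other 4 are lower in prors2.

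No relation between the levels of the pair passed a test within either group. After quantile normalization Pearson's r of the log2 levels of CHLM and AT1G74470 was 0.35 over the 6 prors2 samples and 0.06 over the 6 WT samples (exact permutation p = 0.424 and 0.908, Benjamini-Hochberg adjusted 0.847 and 0.908). Spearman's rho was 0.60 in prors2 and 0.03 in WT (exact permutation p = 0.242 and 1, adjusted 0.483 and 1). Without the 2 samples farthest from the median of AT1G74470, r was 0.14 in prors2 and 0.37 in WT. For the deposited values r was 0.23 in prors2 and -0.13 in WT, and 0.29 in prors2 and -0.78 in WT without the 2 farthest samples.

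Little else of chlorophyll metabolism could be read. Of 38 loci listed for tetrapyrrole synthesis, 2 had a single-gene probe, CHLM and HEMA3. Of 25 listed for the phytyl tail and plastid isoprenoids, 2 had one, AT1G74470 and AT1G78620. None of the 10 listed for chlorophyll breakdown had one (0 of 10), and a further 7 loci of the synthesis lists had only probes shared with other genes, which were not used. After quantile normalization 1 of 2 tested members was lower in each synthesis list, 0 were higher and 1 did not pass. Of all tested features 22.4% were lower and 24.8% higher. The lower member of each list was the gene followed here, CHLM or AT1G74470. The other members, HEMA3 and AT1G78620, differed by -0.01 and -0.08, against a median of 0.07 over all tested features. With 1 further gene each, the lists do not describe their branches.

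HEMA3 (AT2G31250), a gene for glutamyl-tRNA reductase at the entry to tetrapyrrole synthesis, had a deposited relative intensity with a lowest value of 0.796, a median of 0.857 and a highest of 0.992 in prors2, against 0.586, 0.632 and 0.775 in WT. Every prors2 sample lay above every WT sample, as in 39.9% of the complete features. After quantile normalization the log2 difference of HEMA3 was -0.01 (95% interval -0.20 to 0.18, limma adjusted p = 0.949). HEMA3 was called higher on the deposited values, at 0.39 (limma adjusted p = 0.00582), and at equal sums, at 0.32 (limma adjusted p = 0.0104), but lower after median centring, at -0.44 (limma adjusted p = 0.00148). Of all tested features 57.8% were called higher without scaling and 55% at equal sums. The gap between CHLM and HEMA3 was added after both differences were seen, so its p-values restate these and give no further support. The CHLM minus HEMA3 gap changed by -0.54 (95% interval -0.82 to -0.27), lower in 6 of 6 numbers (exact permutation p = 0.00216, adjusted exact p = 0.00352). Without scaling that change was -0.33, lower in 4 of 6 numbers (exact permutation p = 0.0498), and it passed neither after adjustment (adjusted exact p = 0.0539) nor with the pairing kept (sign-flip exact p = 0.125).

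AT1G78620, the other measured locus of the tail list, had a deposited relative intensity with a lowest value of 0.508, a median of 0.532 and a highest of 0.826 in prors2, against 0.349, 0.431 and 0.509 in WT. The groups met at their edges, with the lowest prors2 sample just under the highest WT sample. Its log2 difference was -0.08 (95% interval -0.45 to 0.28, limma adjusted p = 0.713). AT1G78620 was called higher without scaling, at 0.47 (limma adjusted p = 0.0136), as it was at equal sums. AT1G74470 fell against AT1G78620 on either scale, in a gap likewise added after both differences were seen, so its p-values restate these. That gap changed by -0.81 after quantile normalization (95% interval -1.22 to -0.40) and by -1.44 on the deposited values, lower in 6 of 6 numbers on both (exact permutation p = 0.00216 each, adjusted exact p = 0.00352 each).

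**Figure D5:**
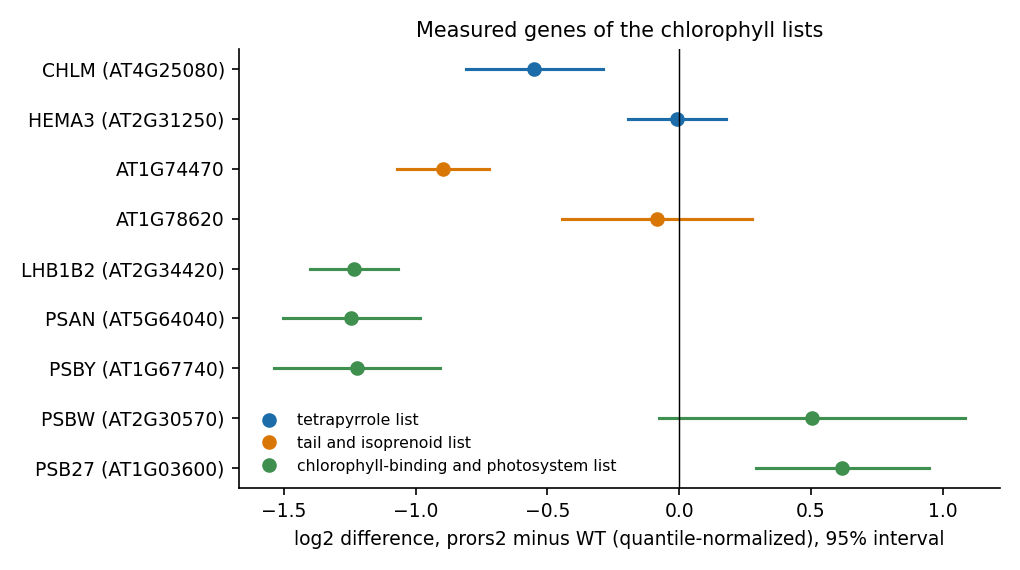
Log2 difference (prors2 minus WT, quantile-normalized, n = 6 samples per group) with the 95% interval from limma for the 9 tested genes of the chlorophyll lists, coloured by list. CHLM, AT1G74470 and the photosystem genes LHB1B2, PSAN and PSBY lie below 0. HEMA3 and AT1G78620 have intervals that include 0, as does PSBW at 0.51 (-0.076 to 1.09), and PSB27 lies above 0. The signs of PSBW and PSB27 turned after median centring.

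Chlorophyll is bound by proteins of the antenna and the photosystems. Of 28 loci listed for chlorophyll-binding and photosystem proteins, 5 were tested. The list also holds other subunits and assembly factors, so a listed gene need not encode a protein that binds chlorophyll. Of the 5, 3 were lower, 1 was higher and 1 did not pass, with a median difference of -1.22, where 22.4% of all tested features were called lower and 24.8% higher. The lower ones were LHB1B2 of the photosystem II antenna (-1.23), PSAN of photosystem I (-1.24) and PSBY of photosystem II (-1.22). The higher one was PSB27 of photosystem II assembly, at 0.62, a sign that turned after median centring (-0.19). PSBW of photosystem II, at 0.51, did not pass (limma adjusted p = 0.143) but did with the replicate number as a block (limma adjusted p = 0.00192). Its sign also turned after median centring (-0.59, limma adjusted p = 0.0648). Without scaling PSBW differed by 0.23 (limma adjusted p = 0.482). The directions of these genes were known when they were set beside the chlorophyll synthesis genes. The changes of the gaps to them are therefore given as a description. Their p-values entered the adjustment over the 13 gaps but are not printed, and the 95% intervals are not read as tests. Minus LHB1B2, PSAN and PSBY, the CHLM difference was 0.69 (95% interval 0.41 to 0.96), 0.69 (0.35 to 1.04) and 0.67 (0.37 to 0.98) on the log2 scale. Minus PSBW and PSB27 it was -1.05 (-1.80 to -0.31) and -1.17 (-1.57 to -0.77). After quantile normalization CHLM thus lay above the 3 lower genes and below PSBW and PSB27. AT1G74470 lay nearer to the lower ones, at 0.34 (0.24 to 0.44), 0.35 (0.071 to 0.63) and 0.33 (-0.048 to 0.70) minus LHB1B2, PSAN and PSBY. Minus PSBW and PSB27 it was at -1.40 (-2.01 to -0.79) and -1.52 (-1.86 to -1.17). Without scaling, CHLM changed relative to LHB1B2, PSAN and PSBY by 1.69, 1.51 and 1.48 and relative to PSBW and PSB27 by -0.17 and -0.58. The change relative to PSBW had a 95% interval of -0.87 to 0.53 there, with 3 of 6 numbers lower. AT1G74470 changed by 0.66, 0.48 and 0.45 relative to the first 3 and by -1.20 and -1.61 relative to PSBW and PSB27 without scaling. LHB1B2 has near-identical relatives that its probe may also read.

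The genes with the most similar profile differed between the pair. Likeness was Pearson's r over the 12 quantile-normalized log2 values, among 509 other single-gene features with complete values, and takes in the difference between the groups. AT1G74470 was most like AT1G68660 (r = 0.99), LHB1B2 (r = 0.99), AT1G21500 (r = 0.98), AT1G51350 (r = 0.97) and AT1G17160 (r = 0.97). Their log2 differences were -1.81, -1.23, -2.50, -1.71 and -0.79. CHLM was most like AT1G04420 (r = 0.94), AT5G46560 (r = 0.90), AT5G58330 (r = 0.89), PSBY (r = 0.87) and AT1G68660 (r = 0.87). AT5G58330 encodes a NADP-dependent malate dehydrogenase, an enzyme whose product, malate, carries reducing power out of the chloroplast. The log2 differences of these 5 were -0.93, -1.03, -1.38, -1.22 and -1.81. AT1G04420 was not called without scaling (-0.20, limma adjusted p = 0.293) or at equal sums (-0.27, limma adjusted p = 0.154). AT1G68660 stood in both groups of neighbours. Between the pair r was 0.86, which placed CHLM at rank 52 among the neighbours of AT1G74470 and AT1G74470 at rank 9 among those of CHLM.

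Taking the group means away leaves the part that varies between replicates. Over those 12 deviations the pair had an r of 0.19, at rank 148 for AT1G74470 and 131 for CHLM. The nearest to AT1G74470 were AT1G68660 (r = 0.77), SWAP70 (AT2G30880, r = 0.75) and AT4G05490 (r = 0.74). The last 2 differed by -0.42 and -0.66 between the groups and did not pass (limma adjusted p = 0.0520 and 0.0513). SWAP70 passed in the fit with the number as a block (limma adjusted p = 0.0445). The nearest to CHLM were AT3G59980 (r = 0.77), AT1G04420 (r = 0.76) and AT1G29700 (r = 0.71). All of these were picked as the highest among 509 features, and their r values were not tested. The probes of AT3G59980, SWAP70 and AT4G05490 were dim, with highest deposited values in WT of 0.12, 0.10 and 0.13. AT3G59980 was higher in prors2, by 0.94 (limma adjusted p = 0.0178), AT1G04420 was lower, as given above, and AT1G29700 differed by -0.18 (limma adjusted p = 0.455).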

How the data were processed

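Per the labels, total RNA of 6 prors2 and 6 WT samples was measured on 1-channel arrays. The deposited relative intensity runs from 0 to an upper limit of 100 on a linear scale; the sources used here do not state its reference, background correction or software. The number of arrays limits the precision. Groups and replicate numbers came from the titles; 0 value columns belonged to other samples.

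Zeros were treated as missing, and the log2 values were quantile-normalized between arrays. The 3024 of 3439 features with at least 4 values above 0 per group were fitted with limma 3.58.1 in R 4.3.3 (group as the only term, Benjamini-Hochberg over all of them, threshold 0.05). Gaps were compared by two-sided exact permutation. Simulated data with known changes were used to check the fit. Of the platform's probes, 692 had 1 gene, 870 several, and 1877 features were not in its table; 690 of 692 matched the TAIR10.1 table, which gave symbols. Coordinates and sequences are not printed, as the array's build and probe sequences were not at hand.

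Same-numbered samples correlated between 0.212 and 0.399 in their deviations from the group means, and each of the 12 was closest to its namesake in the other line. The numbers were therefore taken to pair the samples, which the labels do not state. The blocked limma fit called AT1G74470 and CHLM as well.

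Members and lists were chosen with earlier results of these data known. Named were both members, every tested single-gene list member, and for each member the 5 features most alike in values and 3 in deviations. Alternatives were the block, other scalings, other treatments of 0, filters, variance models, array weights and leaving out samples; leaving out pairs of neighbouring numbers, the sign flips on deposited values, and the gaps other than AT1G74470 against CHLM were added after seeing the data.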

Additional observations from a re-analysis of the deposited data

How the results depend on the processing

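AT1G74470 was called lower under every alternative run, between -0.84 and -1.80, and between -0.88 and -0.93 when single samples were left out. CHLM kept its call between -0.50 and -0.61 with single samples left out, and between -0.41 (limma adjusted p = 0.0483, without replicates 1 and 2) and -0.70 with neighbouring numbers left out, but not without scaling (0.061) or at equal sums (-0.012), where the median feature shifts upward. The change of the gap between them ran from -0.29 to -0.41 with single samples left out (exact permutation p between 0.00649 and 0.0303). At the same size, -0.35, it did not pass with replicate numbers as a block (sign-flip exact p = 0.0625), nor without replicates 3 and 4 (-0.24) or 5 and 6 (-0.30). Within neighbouring numbers CHLM moved to -0.85 (1 and 2) and -0.26 (3 and 4), AT1G74470 to -1.01 (5 and 6) and the gap to -0.025 (1 and 2). With the block, limma called 1605 features, against 1427 without it, and gave CHLM an adjusted p of 0.00733 and AT1G74470 one of 1.36e-04. Of the 9 listed genes 1 was called higher, but 2 with the block, 3 without scaling, 3 at equal sums and 0 after median centring. The second with the block was PSBW (limma adjusted p = 0.00192). The number called lower was 5, but 4 without scaling, 4 at equal sums and 6 after median centring. PSB27 turned to -0.19 and PSBW to -0.59 after median centring, and neither was called there. Without scaling and at equal sums HEMA3 turned to 0.39 and 0.32, AT1G78620 to 0.47 and 0.40, AT1G29700 to 0.62 and 0.55, and SWAP70 (AT2G30880) to 0.56 and 0.49. AT4G05490 turned there too, to 0.32 and 0.25, but was not called. The causes were not tested.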
